A study of Rattus norvegicus with 8 samples.

Results

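The vacuolar proton pump was followed through 10 of its genes in NR8383, a line of alveolar macrophages obtained by lavage of a rat lung. They are Atp6v0d2, Atp6v0d1, Atp6v0a1, Atp6v1a, Atp6v1b2, Atp6v1c1, Atp6v1d, Atp6v1e1, Atp6v1h and Atp6ap1. Members were taken by name, as every non-control probe whose gene name in the scanner files was one of these, which gave 13 of 45598 probes and 10 of 36306 gene names (probe IDs where a probe has no name). The tested cells, labelled NM401, had received NM401, a carbon nanotube with several walls, at 0.17 µg/mL for 4 h, and the control cells had received 0 µg/mL for the same 4 h. Both groups were kept without serum during that time. Each group had 4 biological replicates per the series' design text, hence 8 one-colour Agilent arrays, all from 1 cell line, so the spread between arrays holds no differences between animals.

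The vacuolar proton pump, or V-ATPase, moves protons into lysosomes, endosomes and phagosomes at the cost of ATP. Its V1 sector faces the cytosol and burns ATP in a ring of A and B subunits, while its V0 sector lies in the membrane and carries the protons. Subunit d sits on the proton-carrying ring of V0 and joins it to the rotor of V1. Atp6v0d1 encodes the d subunit found in most tissues, and Atp6v0d2 its paralogue with a restricted distribution, known in mice from osteoclasts, kidney and macrophages and for a part in osteoclast cell fusion. Macrophages use the pump to acidify the compartments into which they take up particles.

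Each gene is read through 60-base probes, and the values below are no better than the match between probe and transcript. The probes of the paralogue pair are shown because the main comparison rests on them. Those of Atp6v1e1 and Atp6v1h are examples from the other members that rose, and that of Atp6v1c1, which also rose, is not shown. The 4 sequences are given 5′ to 3′ in lower case throughout, with no part marked.
Atp6v0d2: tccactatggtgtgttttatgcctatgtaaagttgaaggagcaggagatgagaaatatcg
Atp6v0d1: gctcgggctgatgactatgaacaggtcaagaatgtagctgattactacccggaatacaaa
Atp6v1e1: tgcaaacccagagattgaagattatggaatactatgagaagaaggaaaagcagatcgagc
Atp6v1h: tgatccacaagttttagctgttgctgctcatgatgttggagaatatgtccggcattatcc
On rat build rn4, as the files give positions, the Atp6v0d2 probe lies on the minus strand of chr5:34476269-34476328. The Atp6v0d1 probe lies on the minus strand of chr19:35342854-35343006, a span of 153 bases for 60 bases of probe, so its match is split over exons. The Atp6v1e1 probe lies on the minus strand of chr4:157217203-157217262 and the Atp6v1h probe on that of chr5:14603677-14603736. Each of these 4 probes has at least 1 forward reading frame without a stop codon, and whether they lie in coding or untranslated exon was not annotated further. Cross-hybridisation between the paralogues was not tested.

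All values are log2 of the background-subtracted signal minus the 75th percentile of the same array, called scaled log2 signal here, so a difference is relative to the RNA signal of that array. Before scaling, the 75th percentile averaged 2692 ± 173 intensity units in NM401 and 1236 ± 224 in control (SD, n = 4 each; exact permutation p = 0.0286, two-sided, the smallest that 4 against 4 arrays allow). It was higher on every NM401 array (2537 to 2878) than on every control array (958 to 1489). Unscaled signals of all 13 of the 13 member probes were likewise higher on every NM401 array than on every control array. The share of all probes that did so was not counted, so this is not read as a trait of the pump. The scaled signal of the labelling controls (spike-ins) changed by -2.29 log2 units. If arrays were set level on these controls instead, 2.29 would be added to every NM401 minus control difference of a single gene given below, though not to the differences between genes within an array, and whether both groups received equal amounts is not known. Of the macrophage markers on the array, 9 of 11 were well above background on all 8 arrays and 1, Marco, on none. Their mean scaled log2 signal ranged from 0.23 to 0.35 in NM401 and from -0.05 to 0.31 in control. Of 10 epithelial markers 1 was well above background on all 8 arrays, as were 2 of 8 lymphocyte, 5 of 9 fibroblast and endothelial and 1 of 7 neutrophil markers. On no array was the signal well above background for 5 epithelial, 5 lymphocyte, 4 fibroblast and endothelial and 4 neutrophil markers. The list means include these markers and so rest partly on signal near background. These means were lower in NM401. They were -7.76 to -7.06 against -6.88 to -6.54 in control for epithelium. For neutrophils they were -7.23 to -6.78 against -6.16 to -5.7 in control. Lymphocyte markers averaged -7.25 to -6.66 in NM401 and -6.65 to -6.05 in control, and fibroblast and endothelial ones -5.06 to -4.67 in NM401 and -4.77 to -4.3 in control. Single markers did not all follow their list mean. Of 5 tested fibroblast and endothelial markers, Dcn was called higher, by 1.49 log2 units, Col1a2 and Cdh5 were called lower and 2 did not pass. The part of these shifts in the results was not tested. Slide 2 held NM401 replicates 2 to 4 and slide 1 the remaining 5 arrays. A fit with slide as a block therefore sets NM401 replicate 1 alone against the 4 controls, as does a fit within slide 1. Both give the same log2 fold changes throughout and differ only in the estimate of error. All NM401 arrays lay in slide row 2 and all controls in row 1, so that row and group cannot be told apart.

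Atp6v0d2 was 3.18-fold higher with NM401, while no other member differed by more than 1.5-fold. Of all genes tested, 7.05% were called higher by at least 1.5-fold and 15.2% lower by at least 1.5-fold. Of the 10 members, all of which were tested, 4 rose (Atp6v0d2, Atp6v1c1, Atp6v1e1 and Atp6v1h), 2 fell slightly (Atp6v0d1 and Atp6v1a) and 4 did not pass (limma, adjusted p below 0.05, n = 4 arrays per group). Over all 17444 genes tested, 21.9% were called higher and 35.4% lower, 57.3% in all. A count of 6 of 10 called members is thus near the background of this comparison, as are the 7 called of 12 tested member probes against 56.2% of all probes. The median log2 fold change of the members was 0.14, which is 0.23 above that of all genes (-0.10). In bulk RNA, a change in the share of cells that express a gene and a change in RNA per cell cannot be told apart.

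**Figure D1:**
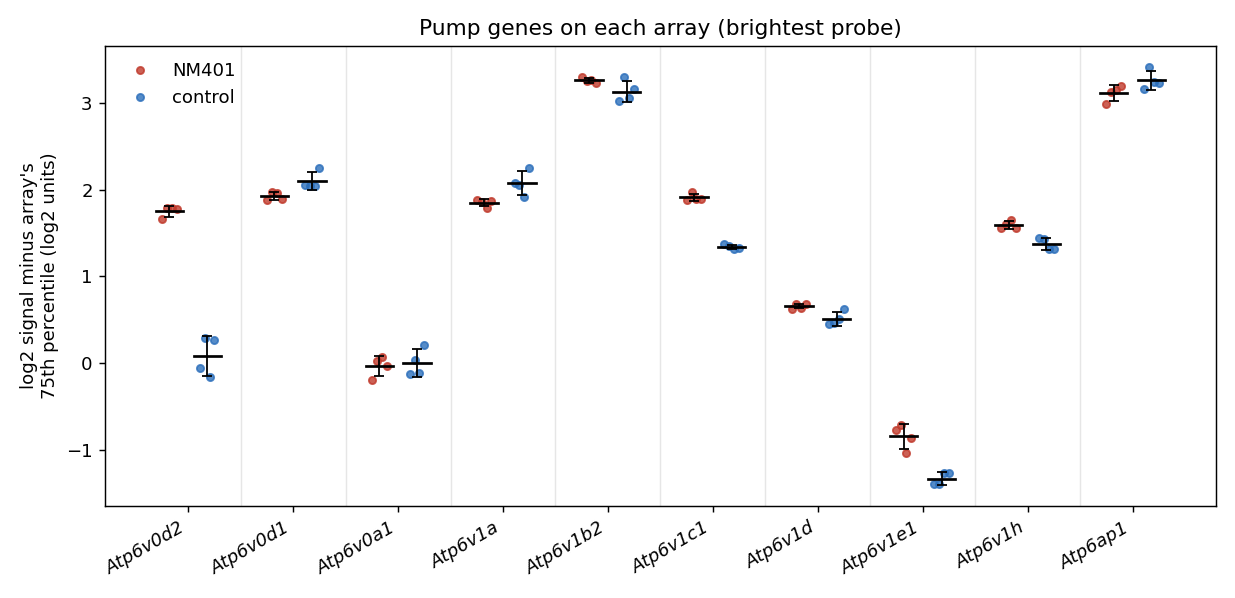
Scaled log2 signal (log2 units relative to the array's 75th percentile) of each pump gene's brightest probe, with NM401 arrays left and control arrays right in each pair; bars are mean ± SD of 4 arrays. Atp6v0d2 lies at 1.66 to 1.79 in NM401 and at -0.16 to 0.29 in control, and heights of different genes are not comparable because each has its own probe.

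Atp6v0d2 had scaled log2 signals of 1.66, 1.79, 1.79 and 1.78 on NM401 arrays 1 to 4, against -0.06, 0.29, -0.16 and 0.27 on control arrays 1 to 4. Every NM401 array was above every control array, by more than the spread within either group. The groups averaged 1.75 ± 0.06 in NM401 and 0.09 ± 0.23 in control (SD, n = 4 each), a log2 fold change of 1.67 ± 0.11 (SE, limma adjusted p = 4.55e-05). Of all genes tested, 99.6% had a lower log2 fold change. It was measured above background on each of the 8 arrays, and across 18 alternatives of processing or of arrays used its log2 fold change lay between 1.57 and 1.87 and was called in each. With slide as a block it was 1.57 (limma adjusted p = 0.00325), and within slide 1 it was the same 1.57. Both values set NM401 replicate 1 alone against the 4 controls. Within slide 1 that array is assumed to vary like the controls.

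Atp6v0d1 was slightly lower with NM401. Its scaled log2 signals were 1.88, 1.98, 1.96 and 1.89 on NM401 arrays and 2.06, 2.05, 2.04 and 2.25 on control arrays. The NM401 values lay below the control values without overlap, by a small margin. The log2 fold change was -0.18 ± 0.06 (SE, limma adjusted p = 0.0455), and it turned to 0.03, not called, when arrays were scaled by their median. In all, the call was lost in 14 of the 18 alternatives besides that reversal, among them quantile normalisation (-0.11, limma adjusted p = 0.205), slide as a block (-0.22, limma adjusted p = 0.139) and slide 1 alone (limma adjusted p = 0.272). It held in only 1 of the 8 fits that left out 1 array, the fit without control replicate 3, and the log2 fold change lay between -0.19 and -0.13 over those fits.

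The change of one paralogue against the other does not depend on how whole arrays are scaled. Within each array, Atp6v0d2 minus Atp6v0d1 was -0.22, -0.20, -0.16 and -0.11 log2 units in NM401, against -2.12, -1.76, -2.20 and -1.98 in control. The 4 NM401 arrays lay close together and far from all 4 controls. The difference changed by 1.84 ± 0.10 log2 units with NM401 (SE, n = 4 arrays per group), a 3.59-fold shift between the paralogues (exact permutation p = 0.0286, two-sided, adjusted p = 0.0429 over the 9 members set against Atp6v0d1). Across the alternatives the change lay between 1.78 and 1.93, with 1.79 for both slide fits, which rest on NM401 replicate 1. Because each probe has its own brightness, the values do not say which paralogue was more abundant.

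**Figure D2:**
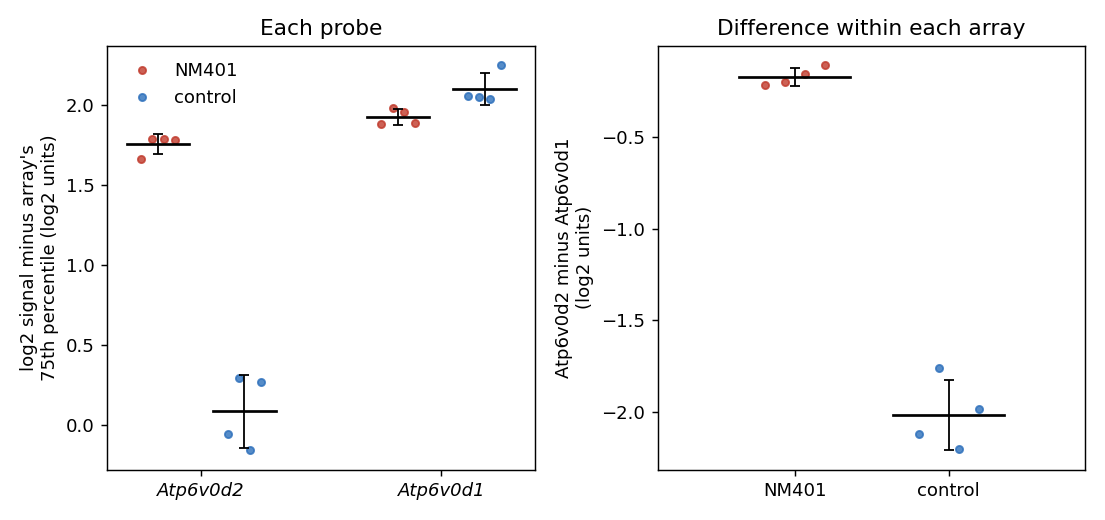
Left, scaled log2 signal of the Atp6v0d2 and Atp6v0d1 probes on each array, with NM401 left of control; right, the within-array difference of both probes in log2 units, with bars for mean ± SD of 4 arrays. The difference averages -0.17 in NM401 and -2.01 in control, and the sign of a single difference carries no meaning because the probes differ.

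The third V0 member, Atp6v0a1, encodes a form of the large a subunit that holds the proton path. It ranged from -0.19 to 0.07 in NM401 and from -0.13 to 0.21 in control, and the groups overlapped. Its log2 fold change was -0.03 ± 0.09 (SE, limma adjusted p = 0.802), and it stood at 0.17, not called, after median scaling. A second Atp6v0a1 probe stayed too near background on all 8 arrays to be tested.

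Among the 6 V1 members, the largest difference was in Atp6v1c1, which encodes subunit C of the collar between V1 and V0, a subunit that leaves when the pump comes apart. Its scaled log2 signals were 1.88, 1.97, 1.90 and 1.90 in NM401 and 1.37, 1.35, 1.32 and 1.33 in control. The groups were well separated, and no array stood far from its own group. The log2 fold change was 0.57 ± 0.05 (SE, limma adjusted p = 8.18e-05), or 1.48-fold, and 0.54 with slide as a block (limma adjusted p = 0.00451) and within slide 1 (limma adjusted p = 0.0412). Atp6v1e1, which encodes subunit E of the peripheral stalks that hold the stator in place, had -0.77, -0.72, -1.04 and -0.86 in NM401 and -1.40, -1.40, -1.27 and -1.27 in control. It did not overlap between groups, although NM401 replicate 3 came nearest to the controls. Its log2 fold change was 0.49 ± 0.08 (SE, limma adjusted p = 0.00143), or 1.4-fold, and 0.57 with slide as a block (limma adjusted p = 0.0168) and within slide 1 (limma adjusted p = 0.0449).

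Atp6v1h, which encodes the regulatory subunit H, rose less. It had 1.56, 1.60, 1.65 and 1.56 in NM401 and 1.44, 1.43, 1.32 and 1.32 in control. The groups did not overlap, but the gap was small. The log2 fold change was 0.22 ± 0.05 (SE, limma adjusted p = 0.0101), and it was 0.19 and not called with slide as a block (limma adjusted p = 0.143) or within slide 1 (limma adjusted p = 0.289). A second probe of Atp6v1h gave 0.17 ± 0.08 and was not called (limma adjusted p = 0.0919). Each of these subunits also changed relative to Atp6v0d1, by 0.74 ± 0.06 for Atp6v1c1, 0.66 ± 0.09 for Atp6v1e1 and 0.39 ± 0.07 log2 units for Atp6v1h (SE, exact permutation p = 0.0286 for each and adjusted p = 0.0429).

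Of the ATP-burning ring, neither of the members Atp6v1a and Atp6v1b2 was called higher. Atp6v1a, the catalytic A subunit, had 1.88, 1.86, 1.79 and 1.87 in NM401 and 2.08, 2.06, 1.92 and 2.25 in control at its brighter probe. The NM401 values were all below the control values, with control replicate 3 the nearest. The log2 fold change was -0.23 ± 0.07 (SE, limma adjusted p = 0.0286), and a dimmer probe gave -0.35 ± 0.08 (SE, limma adjusted p = 0.00688). At the brighter probe the call was lost in 11 of the 18 alternatives. Among them were median scaling (-0.02, limma adjusted p = 0.785), quantile normalisation (-0.16, limma adjusted p = 0.114) and slide as a block (-0.20, limma adjusted p = 0.246). Others were slide 1 alone (-0.20), the deposited table (-0.17, limma adjusted p = 0.06) and no filter on dim probes (-0.23, limma adjusted p = 0.0801). The call was also lost without control replicate 1 or 2 or without NM401 replicate 2, 3 or 4, at -0.23 to -0.21.

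Atp6v1b2, the B subunit found in most tissues, ranged from 3.23 to 3.30 in NM401 and from 3.02 to 3.30 in control. Its groups overlapped, with a log2 fold change of 0.13 ± 0.07 (SE, limma adjusted p = 0.148). It was called at 0.27 after quantile normalisation, at 0.33 after median scaling and at 0.18 without control replicate 2. Atp6v1d, a subunit of the central rotor, ranged from 0.63 to 0.68 in NM401 and from 0.45 to 0.63 in control. It missed the threshold narrowly at 0.15 ± 0.06 (SE, limma adjusted p = 0.052). It was called in 6 of the 18 alternatives: quantile normalisation (0.17), median scaling (0.35), normexp (0.14), the filter on all 8 arrays (0.15), the mean of probes (0.15) and without control replicate 4 (0.18). Atp6ap1, an accessory protein of the pump also known as Ac45, ranged from 2.99 to 3.20 in NM401 and from 3.16 to 3.42 in control, with overlap. Its log2 fold change was -0.15 ± 0.08 (SE, limma adjusted p = 0.13), and it stood at 0.06, not called, after median scaling. Relative to Atp6v0d1, Atp6v1b2 changed by 0.30 ± 0.08 and Atp6v1d by 0.32 ± 0.03 log2 units (SE, exact permutation p = 0.0286 for each and adjusted p = 0.0429). Atp6v0a1 changed by 0.15 ± 0.06, Atp6v1a by -0.05 ± 0.05 and Atp6ap1 by 0.03 ± 0.09 relative to Atp6v0d1, none of which passed (lowest adjusted exact permutation p = 0.11). In all, the groups did not overlap for 7 of the 10 members, against 53.2% of all genes tested.

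Beyond the 10 members, the pump has 16 further genes on the list used here, all on the array, of which 11 were tested. Of these 5 rose, 2 fell and 4 did not pass, with a median log2 fold change of 0.15, which is 0.25 above that of all genes. The 7 called of 11 are near the 57.3% called among all genes. The untested genes, Atp6v0a4, Atp6v1c2, Atp6v1e2, Atp6v1g2 and Atp6v1g3, encode forms known from kidney, brain or testis among other tissues, and they were well above background on 0 or 1 of the 8 arrays. Atp6v0b, a part of the proton-carrying ring, stood at 2.96, 3.14, 3.23 and 3.01 in NM401 and at 2.29, 2.44, 2.32 and 2.42 in control. It was higher on every NM401 array, with a log2 fold change of 0.72 ± 0.08 (SE, limma adjusted p = 0.000189), and 0.59 with slide as a block (limma adjusted p = 0.00914) and within slide 1 (limma adjusted p = 0.0437).

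Atp6v1f, a rotor subunit, rose by 0.44 ± 0.06 log2 units (SE, limma adjusted p = 0.000444), and Atp6v0e1, a small membrane subunit, by 0.38 ± 0.07 (SE, limma adjusted p = 0.00201). With slide as a block both stayed called, at 0.50 for Atp6v1f and 0.48 for Atp6v0e1, but within slide 1 neither passed (limma adjusted p = 0.0544 and 0.0674). Rnasek, a small protein associated with V0, fell by 0.38 ± 0.06 (SE, limma adjusted p = 0.00135), was called at -0.36 with slide as a block, and was not called within slide 1 (limma adjusted p = 0.114) or after median scaling (-0.17). The remaining called genes are named after their values were seen. Atp6v1g1, a stalk subunit, rose by 0.30 ± 0.06 (limma adjusted p = 0.00245) and was not called within slide 1 (limma adjusted p = 0.154). Atp6v0c, the main subunit of the proton-carrying ring, stood at -0.21 ± 0.07 (limma adjusted p = 0.0431) and was not called with median scaling, where it was at 0.00, or with slide as a block (-0.23). Atp6v1b1, the B form of acid-secreting epithelia, was dim, well above background on 3 of 4 control arrays. Its log2 fold change of 1.06 ± 0.28 turned to -0.22, called lower, with normexp background correction, so its direction rests on the background method.

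**Figure D3:**
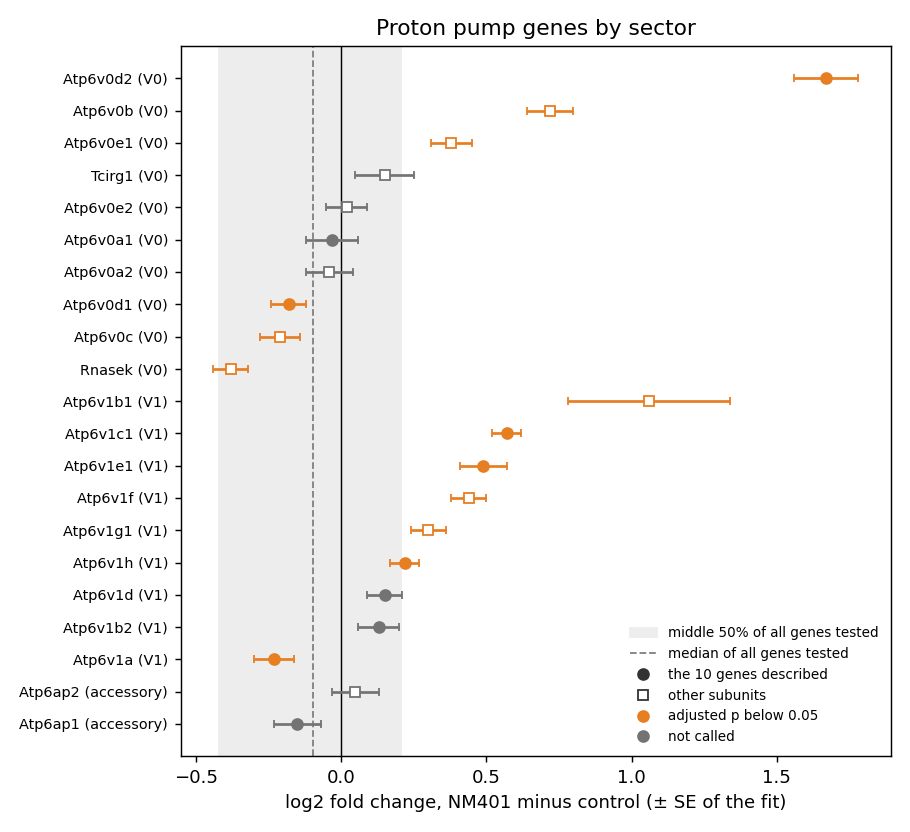
Log2 fold change, NM401 minus control, with the SE of the fit, for the 21 tested pump genes, ordered by sector and size; the shaded band is the middle 50% of all genes tested. Atp6v0d2 at 1.67 stands apart from the other V0 genes, which lie between -0.38 and 0.72.

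Genes that assemble or regulate the pump moved both ways. Of 13 tested, 2 rose, 6 fell and 5 did not pass, with a median log2 fold change of -0.18. The 8 called of 13 are near the 57.3% called among all genes, of which 21.9% were higher and 35.4% lower. Dmxl1, a rabconnectin that helps V1 join V0, rose by 0.87 ± 0.13 (SE, limma adjusted p = 0.000819), although it stood at 0.09 and was not called with normexp. Its partner Wdr7 fell by 0.28 ± 0.07 (SE, limma adjusted p = 0.00884). Of 4 genes with a TLDc domain, Oxr1 rose by 0.36 ± 0.08 (SE, limma adjusted p = 0.00539) and the other 3 fell. Ncoa7 fell by 0.37 ± 0.06 (SE, limma adjusted p = 0.0016). Tbc1d24 and Tldc2, named after their values were seen, fell by 0.76 ± 0.21 and 1.59 ± 0.59 (SE, limma adjusted p = 0.0169 and 0.0478). For both, the NM401 and control values overlapped, and neither was followed through the alternatives. Tldc2 was well above background on 1 NM401 array and 3 control arrays. Dmxl1 (1.01) and Ncoa7 (-0.44) stayed called with slide as a block, whereas Oxr1 (0.22, limma adjusted p = 0.171) and Wdr7 (-0.20, limma adjusted p = 0.19) did not. After median scaling Wdr7 stood at -0.07 and Ncoa7 at -0.17, neither called.

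Channels and transporters share the membrane with the pump and set the voltage and ion content against which it works. Of 16 tested, 6 rose, 2 fell and 8 did not pass, with a median log2 fold change of 0.18. Among all genes 57.3% were called, 21.9% higher and 35.4% lower, so the 8 called of 16 do not exceed the background. Mcoln2, an endolysosomal cation channel, had -1.54, -1.61, -1.59 and -1.62 in NM401 and -2.54, -2.51, -2.73 and -2.56 in control. All NM401 arrays lay well above all controls, a log2 fold change of 0.99 ± 0.06 (SE, limma adjusted p = 4.11e-05). Clcn4, a chloride-proton exchanger of endosomes, rose by 1.24 ± 0.15 (SE, limma adjusted p = 0.000295), while the related exchangers Clcn3 and Clcn5 fell by 0.51 ± 0.06 and 0.53 ± 0.11 (SE, limma adjusted p = 0.000398 and 0.00382). With slide as a block all of these were called, at 1.04 for Mcoln2, 1.34 for Clcn4, -0.47 for Clcn3 and -0.68 for Clcn5. Within slide 1 Clcn3 and Clcn5 missed the threshold (limma adjusted p = 0.0648 and 0.0768), and Clcn5 was not called after median scaling (-0.32).

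The MiT transcription factors switch on lysosomal genes, and the Ragulator-Rag complex on the lysosome senses nutrients beside the pump. Of 15 tested genes of this list 5 rose, 2 fell and 8 did not pass, with a median log2 fold change of 0.14. These 7 called of 15 are fewer in proportion than the 57.3% called among all genes. The Ragulator subunits Lamtor1 and Lamtor4 rose by 0.54 ± 0.06 and 0.45 ± 0.07 (SE, limma adjusted p = 0.000211 and 0.00101). Flcn, which acts on the Rag proteins, fell by 0.52 ± 0.06 (SE, limma adjusted p = 0.000224), and the Rag gene Rragd rose by 0.25 ± 0.07 (SE, limma adjusted p = 0.0133). With slide as a block Lamtor1 (0.51), Lamtor4 (0.47) and Flcn (-0.45) were called and Rragd (0.24, limma adjusted p = 0.131) was not, nor was Rragd with normexp (0.08), and within slide 1 none of these 4 passed (lowest limma adjusted p = 0.0517). Of the factors themselves, named after their values were seen, Tfeb stood at 0.05 ± 0.07 (limma adjusted p = 0.526). After median scaling Tfeb was called higher, at 0.26 (limma adjusted p = 0.0382). Mitf rose by 0.55 ± 0.16 (limma adjusted p = 0.0198) and was not called with slide as a block (0.67, limma adjusted p = 0.097). Tfe3 stood at -0.19 ± 0.05 (limma adjusted p = 0.0193), and at 0.02 and not called after median scaling.

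Since Atp6v0d2 is known from osteoclasts, genes of osteoclasts and of cell fusion were set beside it. Of 15 tested, 4 rose, 7 fell and 4 did not pass, with a median log2 fold change of -0.22, where 21.9% of all genes were called higher and 35.4% lower. One of the 4 that rose, Ctsk, passed the filter on dim probes through the NM401 arrays alone, so that its call says little, and it leaves 3 others (Calcr, Car2 and Tyrobp). Sirpa, a receptor for CD47 that takes part in macrophage fusion, had 4.42, 4.30, 4.39 and 4.43 in NM401 and 5.35, 5.18, 5.25 and 5.23 in control. The fall was larger than the spread in either group, at -0.87 ± 0.06 (SE, limma adjusted p = 4.57e-05). Tnfrsf11a, the receptor for the osteoclast factor RANKL, fell by 1.08 ± 0.10 (SE, limma adjusted p = 0.000107), Oscar, an osteoclast-associated receptor, by 0.64 ± 0.08 (SE, limma adjusted p = 0.000435), and Nfatc1, the transcription factor that drives osteoclast formation, by 0.58 ± 0.07 (SE, limma adjusted p = 0.000347). These 4 stayed called with slide as a block, at -0.84 for Sirpa, -1.02 for Tnfrsf11a, -0.46 for Oscar and -0.52 for Nfatc1, while within slide 1 Oscar and Nfatc1 did not pass (limma adjusted p = 0.0771 and 0.0682). With the mean of a gene's tested probes in place of the brightest, Sirpa (-0.57) and Nfatc1 (-0.34) fell less but stayed called. Tnfrsf11a and Oscar were unchanged by it. Of the osteoclast enzymes, chosen after their values were seen, Acp5 stood at -0.94 ± 0.18 (limma adjusted p = 0.00302, and 0.0571 with slide as a block). Ctsk was near background on all 4 control arrays. Its log2 fold change of 1.43 turned to -0.29 with normexp and to -0.09 with the deposited table, neither called, so its direction rests on the background method.

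**Figure D4:**
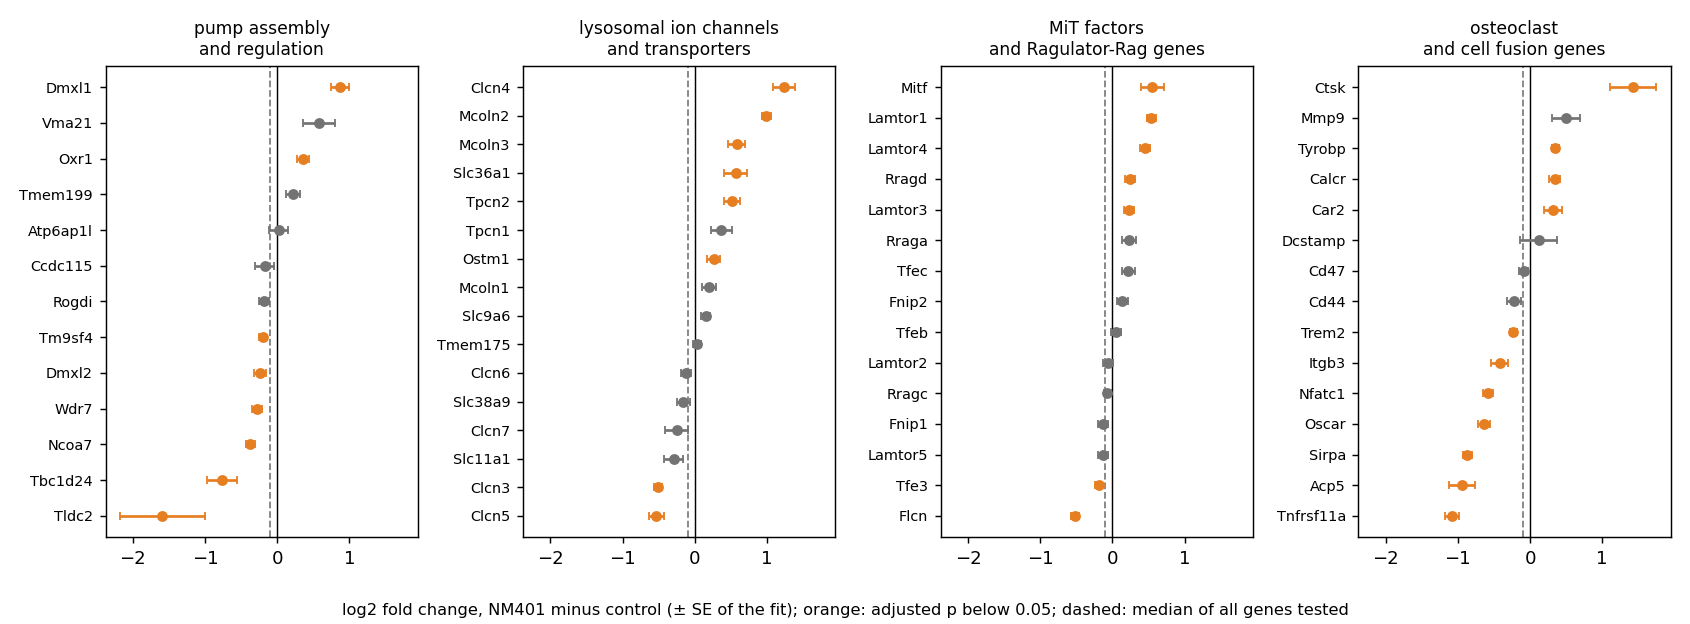
Log2 fold change, NM401 minus control, with the SE of the fit, for tested genes of 4 lists around the pump; orange points passed the adjusted threshold and the dashed line is the median of all genes. Each list holds called genes on both sides of 0, and in the osteoclast list 4 rose and 7 fell, Ctsk among the 4 being near background in control.

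Genes with a pattern like that of Atp6v0d2 were ranked by the root-mean-square difference between profiles over the 8 arrays, each centred on its own mean, among 9977 other named genes well above background on all arrays. The nearest were Lce1f at 0.0906 log2 units, Tnfrsf12a (the receptor for the cytokine TWEAK) at 0.0991, Dcn (decorin) at 0.103, Cxcl2 (a chemokine that draws neutrophils) at 0.14 and Gpatch4 at 0.16. Their own log2 fold changes were 1.77, 1.53, 1.49, 1.53 and 1.75 in that order. Dcn is also on the fibroblast marker list. Among pump genes the nearest was Atp6v0b at 0.488, with rank 282, while Atp6v0d1 was at 0.93 with rank 5960. The genes nearest to Atp6v0d1 were mrpl11 at 0.0329, Slc35c2 at 0.0358 and Daglb at 0.0372, with log2 fold changes of -0.17, -0.14 and -0.15. After median scaling mrpl11 stood at 0.03 and Daglb at 0.05, neither called. Such distances describe these 8 arrays, and they are governed mostly by the step between the groups.

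Promoters were searched for the palindrome TCACGTGA, which holds the core bound by MiT factors, and for its core CACGTG, on both strands of the window from 250 bases before to 50 bases after the start site (RefSeq, GRCr8). The table of promoters holds 6 of the 10 members and 21 of all 26 pump genes. Atp6v0d2, Atp6v1b2, Atp6v1c1 and Atp6v1h were not searched, so the counts cover 1 of the 4 members that rose, Atp6v1e1. CACGTG was found in 1 of the 6 members and in 2 of the 21 pump genes, against 6.42% of 33469 promoters, and TCACGTGA in the same counts, against 0.777%. The windows of both genes are shown because one fell slightly and the other rose, with TCACGTGA in capitals.
Atp6v0d1: ccccattgtggTCACGTGAgatgcagtgcg
Atp6v0e1: tcgcgcgccggTCACGTGAgcctctgttga
The Atp6v0d1 stretch is chr19:50357283-50357312 on the minus strand, with the motif's first base 53 bases before the start site. The Atp6v0e1 stretch is chr10:17007115-17007144 on the minus strand, with the motif beginning at base 24 of the transcript. A match of letters is not a binding site, and the AP-1 motif TGANTCA was found in 2 of the 21 pump promoters (Atp6v0b and Atp6v1a), against 7.33% of all.

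**Figure D5:**
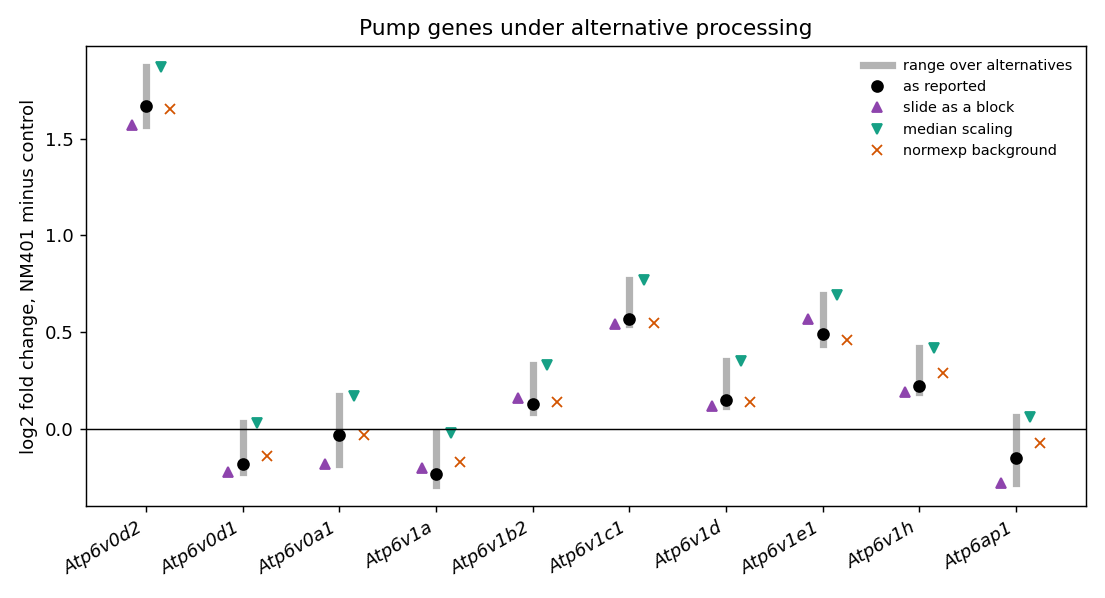
Log2 fold change, NM401 minus control, of each member as reported (black) and with slide as a block, median scaling and normexp, with grey bars for the range over 18 alternatives. Atp6v0d2 stays between 1.57 and 1.87, while the range of Atp6v0d1 (-0.22 to 0.03) crosses 0.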

How the data were processed

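Cy3-labelled cRNA of 4 NM401 and 4 control cultures was put on 1-colour arrays (labels' protocols). The deposited files hold spot intensity values from Agilent Feature Extraction (version 11.0.1.1, per the submitters' processing notes), with background subtracted and spatial trends removed per the file headers. The deposited series table held the median pixel intensity of the same spots (469736 of 469736 values equal). Here, spots marked as outliers were left out, log2 of the processed signal was taken minus each array's 75th percentile over non-control spots, and spots of a probe were averaged. Testing was limited to probes marked well above background on 4 or more of the 8 arrays (21684 probes, 17444 genes), and a gene was represented by its brightest tested probe. Of 45598 probes, 21109 were named by accession through RefSeq (GRCr8, names only). limma 3.58.1 (R 4.3.3, lmFit and eBayes, two-sided, Benjamini-Hochberg over all probes, no covariate) gave differences, NM401 minus control, called at an adjusted p below 0.05. The paralogue contrast used an exact permutation test. Named are all members, up to 4 genes of smallest p in each further list, and the nearest profiles. The members and lists were chosen with earlier results of these data known. The fit was tested on simulated data. The number of arrays limits precision. The alternatives are normexp (offset 50), quantile and median scaling, other filters on dim probes, the mean of probes, the deposited table, slide, replicate number and leaving out each array.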

Additional observations from a re-analysis of the deposited data

Results flagged for a closer look

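In 100 sets of 4 arrays (each named gene in each group), 8 had 1 array whose gap to the nearest of the others passed the 95% critical value for 4 samples; chance alone flags about 1 set in 20. On NM401 replicate 1, Atp6v0d2 was 1.66 against 1.78 to 1.79 on the other NM401 arrays, Atp6ap2, the prorenin receptor and pump accessory gene, 1.44 against 1.13 to 1.17, Atp6v0e2 -4.15 against -4.09 to -4.08, and Cxcl2 -0.90 against -0.93 on each of the others. NM401 replicate 1 is also the only NM401 array on slide 1. On control replicate 4, Atp6v0d1 was 2.25 against 2.04 to 2.06 on the other controls and mrpl11 2.86 against 2.73 to 2.75. Without that array Atp6v0d1 stood at -0.13 and was not called. Rnasek was 3.30 on NM401 replicate 4 against 3.38 on each of the others, and Tnfrsf11a -5.42 on NM401 replicate 2 against -5.18 to -5.15.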

How the results depend on the processing

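The rise of Atp6v0d2, Atp6v1c1 and Atp6v1e1 and the change of Atp6v0d2 against Atp6v0d1 kept their direction and their call, where a test was possible, in all 18 alternatives. The 18 are not separate checks of these estimates. Both other filters on dim probes, the mean of probes and the replicate block left them unchanged. Slide as a block and slide 1 alone gave the same estimate. The change of the paralogue difference lay between 1.78 and 1.93 when 1 array was left out, where no test could pass with 3 against 4 arrays (smallest exact permutation p = 0.0571). The 2 members called lower were 1 with normexp and with the replicate block, and 0 with median scaling, the deposited table, quantile normalisation, slide as a block, all probes tested regardless of brightness, and within slide 1 (limma; 0 to 2 at an unadjusted p under 0.05), and 0 to 2 when 1 array was left out. The 5 other subunits called higher were 8 with median scaling and 1 within slide 1. The 2 called lower were 4 with normexp, 1 with quantile normalisation, the mean of probes, the replicate block and slide as a block, 0 with median scaling and within slide 1 (limma; 1 each at an unadjusted p under 0.05), and 1 to 2 when 1 array was left out. Over all genes, 3823 were higher and 6178 lower (38.2% of calls higher). With median scaling these were 6113 and 3360 (64.5%), with quantile normalisation 4776 and 4873 (49.5%), with normexp 2742 and 9420 (22.5%), with the deposited values 2812 and 8435 (25%), with no filter on dim probes 2951 and 7764 (27.5%), with slide as a block 2216 and 3525, and within slide 1 755 and 1361. Median scaling moved the median log2 fold change of all genes to 0.11, and normexp moved it to -0.24. Of values called in either fit, signs turned with median scaling for Atp6v0d1 (0.03), mrpl11 (0.03), Daglb (0.05) and Tfe3 (0.02), with normexp for Atp6v1b1 (-0.22), Ctsk (-0.29) and Atp6v0e2 (-0.31), and with the deposited table for Atp6v1b1 (-0.05) and Ctsk (-0.09). Of values called in neither, median scaling turned Atp6v0a1 (0.17), Atp6ap1 (0.06), Slc35c2 (0.06) and Atp6v0a2 (0.17), and normexp turned Tfeb (-0.05). Other alternatives also turned such values, for example the deposited table for Tfeb (-0.01), Atp6v0e2 (-0.21) and Atp6ap2 (-0.01). Slide as a block did so for Tfeb (-0.06) and Atp6v0e2 (-0.04), and the mean of probes for Atp6v0a2 (0.22) and Atp6ap2 (-0.01). The cause was not tested. Deviations of same-numbered arrays were correlated across genes at -0.072 to 0.193. Arrays of unlike number were not compared, so whether the numbers pair the arrays is not known. With the replicate block Atp6v0d2 stood at 1.67 (limma adjusted p = 0.00208), and 3535 genes were higher and 5845 lower. Signal near background limits Atp6v1b1, Ctsk and the 5 untested subunits.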
